A study of Homo sapiens with 6 samples.

Results

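The 48 cell cycle, replication and mitosis mRNAs described here are cyclins, their kinases, spindle checkpoint and spindle proteins, condensin and cohesin subunits and replication factors, chosen by gene name from the 58302 genes listed in each of the 2 deposited tables. All 48 were found in both tables, and kinesins and centromere (CENP) or centrosome (CEP) genes were not among them. RNA immunoprecipitation and sequencing (RIP-seq) measures which RNAs come down with an antibody, and the series applied it to 2 cytoplasmic poly(A)-binding proteins in HepG2, an established human hepatocellular carcinoma line. The series title names PABPC4 in MYC-driven liver cancer. Duplicate immunoprecipitations with an antibody against PABPC4 came from HepG2 cells overexpressing PABPC4, and duplicates with an antibody against PABPC1 came from HepG2 cells overexpressing PABPC1. The 2 controls used rabbit IgG, per the labels 1 from each overexpressing population. No group held cells without an overexpressed protein, and each antibody met its own population, so cells and antibody cannot be told apart. No input library was used here, so the amount of an mRNA in the cell and the amount that came down cannot be told apart either. The labels do not say that duplicates came from separate cultures, and p-values over libraries therefore describe how these libraries vary, which may be technical variation alone.

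A dividing cell copies its DNA in S phase and separates the copies in mitosis. Cyclins switch on cyclin-dependent kinases in turn, MCM helicases open the DNA at replication origins, and PCNA with its loader RFC holds the polymerases on the template. Cohesin, built on SMC1A and SMC3, holds sister chromatids together, condensin, built on SMC2 and SMC4, compacts them, and topoisomerase II alpha (TOP2A) untangles them. The spindle checkpoint, with BUB1, BUB1B, BUB3, TTK and CDC20, delays separation until every kinetochore is attached. Many of these genes are transcribed in waves, S phase genes through E2F sites, and G2 and mitosis genes through CCAAT boxes and the cell cycle homology region TTTGAA. PABPC1 and PABPC4 bind the poly(A) tails of mRNAs in general, and the cell cycle mRNAs are here described among all others.

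The promoters of MKI67, TOP2A and SMC3 are shown because these mRNAs were higher in both RIPs than with IgG and higher with PABPC4 than with PABPC1. MKI67 encodes Ki-67, which coats mitotic chromosomes. TPX2, a spindle assembly factor, met the same conditions and had no entry in the table. Each line gives 250 bases upstream of the RefSeq gene start on the gene's own strand, 5′ to 3′, in build GRCh38.p14. Capitals mark TTTGAA and CCAAT, or TTCAAA and ATTGG where the motif lies on the other strand. The MKI67 window is chr10:128126424-128126673, minus strand. The TOP2A window is chr17:40417897-40418146, minus strand. The SMC3 window is chr10:110567445-110567694, plus strand.
MKI67: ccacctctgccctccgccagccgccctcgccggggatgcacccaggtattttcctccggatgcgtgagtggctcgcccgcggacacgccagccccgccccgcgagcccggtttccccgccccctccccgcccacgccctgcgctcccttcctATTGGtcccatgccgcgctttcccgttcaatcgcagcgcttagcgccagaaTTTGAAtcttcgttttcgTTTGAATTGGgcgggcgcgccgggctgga
TOP2A: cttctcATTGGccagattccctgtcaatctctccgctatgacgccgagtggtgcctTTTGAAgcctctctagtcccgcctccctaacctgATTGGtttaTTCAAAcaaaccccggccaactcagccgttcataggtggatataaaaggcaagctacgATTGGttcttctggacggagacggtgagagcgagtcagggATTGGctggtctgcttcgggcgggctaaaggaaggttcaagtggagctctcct
SMC3: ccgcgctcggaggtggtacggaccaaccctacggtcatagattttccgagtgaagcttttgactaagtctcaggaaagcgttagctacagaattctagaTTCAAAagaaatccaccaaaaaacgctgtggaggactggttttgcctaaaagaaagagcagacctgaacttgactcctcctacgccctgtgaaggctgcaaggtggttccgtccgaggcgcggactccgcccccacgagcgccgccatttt

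The MKI67 window holds 2 matches to TTTGAA and 2 to CCAAT, of which 1 of each overlap. The TOP2A window holds 2 matches to TTTGAA and 4 to CCAAT, and the SMC3 window holds 1 to TTTGAA and 0 to CCAAT. Promoters were matched by symbol for 38 of the 48 members. TTTGAA on either strand was present in 18 of the 38, or 47.4%, against 13.6% of all 27305 promoters of the same length. CCAAT was present in 25 of the 38, or 65.8%, against 33.0% of all. Both motifs were in 34.2% of the members' promoters and in 4.85% of all. These motifs are known from genes of these classes, and a match is a description of letters and not a binding site. By role the promoters split. Among the replication factors, 0 of 7 promoters held TTTGAA and 5 of 7 held an E2F-type octamer (TTTCCCGC, TTTGGCGC or TTTCGCGC on either strand), against 18 of 31 and 1 of 31 of the other members. An E2F-type octamer was in 2.38% of all promoters.

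Whole reads per library were recovered from the deposited folds and p-values. Totals were 850190 and 841327 reads with PABPC4, 289217 and 277552 with PABPC1, and 133030 and 94235 with IgG, so the IgG libraries set the precision. Nuclear genes with reads solved for every library took 78.1% and 76.7% of PABPC4 reads, 53.0% and 58.5% of PABPC1 reads and 38.2% and 40.1% of IgG reads. The rest was mitochondrial RNA, MALAT1, RN7SL2 and genes with too few reads to be solved. A fold on library totals, such as the deposited fold, moves with this difference. The 10 hepatocyte and HepG2 markers summed, on a scale of library depth (CPM), to 8724 and 9332 with PABPC4, 6390 and 7166 with PABPC1, and 3886 and 3841 with IgG, and at least 9 of the 10 were detected in each library. Markers of blood cells (8 genes) summed to 743 and 588, 1307 and 1441, and 3631 and 3682 CPM in the same order of antibodies, with all 8 detected in every library. Fibroblast markers (5 genes) summed to at most 23.5, 48.4 and 218 CPM with PABPC4, PABPC1 and IgG. Their part in the results was not tested.

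Together the 48 mRNAs took a larger share of the reads with PABPC4 than with PABPC1, and the smallest share with IgG. They made up 1.05% and 0.985% of all PABPC4 reads, 0.478% and 0.546% of PABPC1 reads, and 0.264% and 0.274% of IgG reads. As shares of these nuclear reads alone the values were 1.35% and 1.28% with PABPC4, 0.901% and 0.932% with PABPC1, and 0.690% and 0.682% with IgG. The order of antibodies was the same on both scales, and the duplicates of an antibody did not overlap those of another. In reads this was 8950 and 8286 with PABPC4, 1382 and 1515 with PABPC1, and 351 and 258 with IgG. MKI67 alone gave 2696 and 2494 of these with PABPC4, 332 and 376 with PABPC1, and 66 and 49 with IgG. The summed share is thus in part that of 1 mRNA and does not describe each of the 48.

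Levels differed widely among the members. Per length, in reads per kilobase of gene, scaled to library depth (RPKM), MKI67 was highest with PABPC4 at 240 ± 11.4 RPKM, followed by TPX2 at 175 ± 14.7, TOP2A at 137 ± 11.9 and SMC3 at 130 ± 4.68 (mean ± SD, n = 2 libraries). TOP2A and SMC3 do not differ beyond their spread in that order, and MKI67 and TPX2 do. With PABPC1 the same 4 mRNAs led, at 97.7 ± 11.4 RPKM for MKI67, 89.8 ± 15.8 for TPX2, 63.1 ± 6.49 for TOP2A and 56.0 ± 11.2 for SMC3, where neither MKI67 and TPX2 nor TOP2A and SMC3 differ beyond their spread. With IgG, TPX2 (47.3 ± 12.8 RPKM), MCM3 (43.4 ± 0.255) and MKI67 (39.7 ± 1.32) led, with TPX2 within its spread of the other 2. The lowest levels with PABPC4 belonged to CDK2, the S phase kinase, at 0.758 ± 0.209 RPKM, the helicase subunit MCM6 at 1.87 ± 0.217 and the checkpoint kinase TTK at 1.93 ± 0.899.

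**Figure D1:**
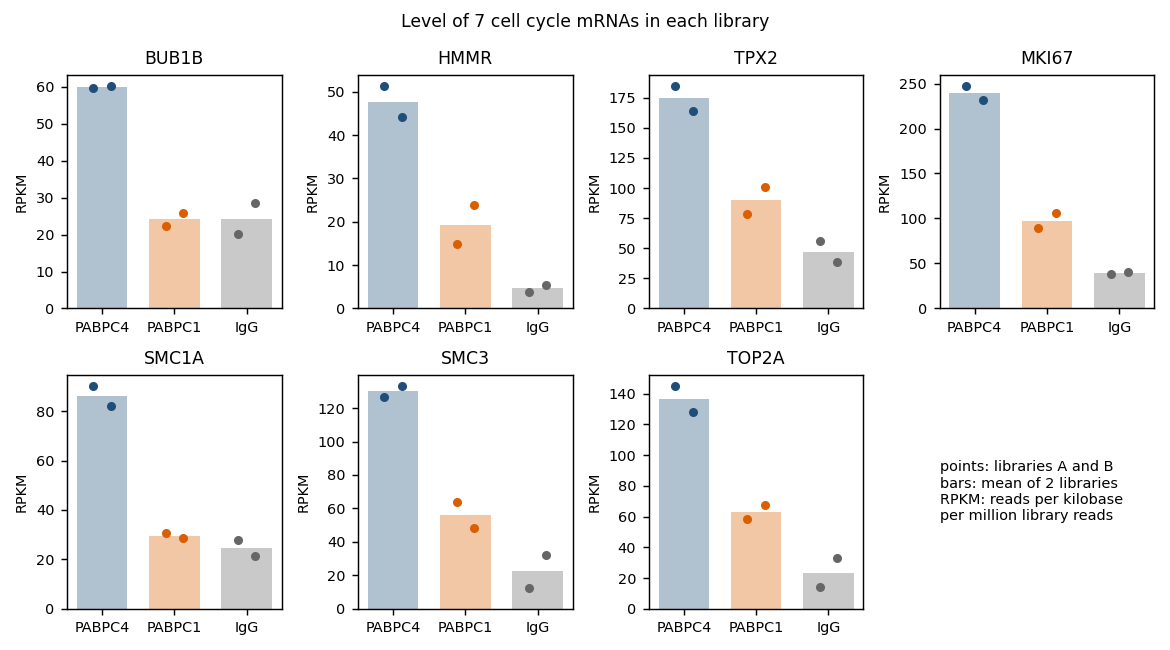
Recovered level in RPKM, on an axis from 0 for each mRNA, of the 7 members that differed between PABPC4 and PABPC1 RIP; points are libraries and bars the mean of 2 libraries with PABPC4, PABPC1 and IgG. Both PABPC4 points lie above both PABPC1 points in each panel, which largely follows from choosing the members on the same libraries. BUB1B and SMC1A have PABPC1 levels near those of IgG.

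The comparison of PABPC4 RIP with IgG asks which of these mRNAs came down with PABPC4 above background. In the authors' deposited table, 19 of the 48 members were higher and 0 were lower at an adjusted p under 0.05, where 5.54% of the 21455 genes with a p-value were higher and 0.900% lower. Genes with many reads are called more often: of the 42 members with at least 50 PABPC4 reads 19 were higher, and 0 lower, against 23.0% higher and 0.349% lower of the 5159 genes of that depth. The median fold of the members in the authors' deposited table was 3.28, or 2.91 with the 3 members without an IgG read set at their bounds, against 3.40 over all genes tested, many of which have few reads and no IgG read. Among those deeper genes the medians from the authors' deposited table were 3.42 for members and 2.12 for all. The depth is set by PABPC4 reads alone, which also enter the fold, so it favours genes high with PABPC4. The deposited p covers counting error only. With the spread between libraries in the test and scaling on the median gene (limma voom, adjusted p under 0.05), 8 members were higher and 0 lower, against 2.43% and 1.63% of 7977 genes.

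Of the chromosome structure mRNAs 7 of 10 were higher with PABPC4. Their pooled reads gave the highest ratio of the roles, 5.24 over IgG on library totals (95% counting interval 4.64 to 5.95) and 2.64 on the nuclear reads above (2.34 to 2.997), to which MKI67 gave 5190 of 10218 reads. MKI67 stood at 248 and 232 RPKM with PABPC4, 89.6 and 106 with PABPC1, and 38.7 and 40.6 with IgG. No library of one antibody overlapped those of another. In the authors' deposited table MKI67 was 6.04-fold over IgG (adjusted p = 3.2e-102), and the counting interval of its summed reads was 5.04 to 7.36. Intervals given beside deposited folds, here and below, were computed from the recovered summed reads and are not the authors'. TOP2A stood at 145 and 128 RPKM with PABPC4, 58.5 and 67.7 with PABPC1, and 14.0 and 33.0 with IgG, again without overlap. The fold of TOP2A in the authors' deposited table was 5.81 (4.40 to 9.16, adjusted p = 7.4e-29), and it came to 9.74 without IgG library B.

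Of the cohesin core, SMC3 stood at 127 and 133 RPKM with PABPC4, 63.9 and 48.04 with PABPC1, and 12.3 and 32.3 with IgG. The IgG libraries of SMC3 differed from each other, and the fold of 5.83 (4.06 to 10.4, adjusted p = 4e-18) in the authors' deposited table came to 10.6 without IgG library B. Its partner SMC1A stood at 90.2 and 82.1 RPKM with PABPC4, 30.7 and 28.5 with PABPC1, and 28.0 and 21.3 with IgG. PABPC1 and IgG levels of SMC1A lay close together, while both PABPC4 libraries lay far above them. The authors' deposited table listed SMC1A at 3.50-fold with PABPC4 (2.64 to 4.51, adjusted p = 1.4e-20).

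In condensin, SMC4 stood at 33.5 and 33.0 RPKM with PABPC4, 19.6 and 20.4 with PABPC1, and 4.44 and 2.51 with IgG, with both RIPs far above IgG. Its fold with PABPC4 was 9.56 (4.40 to 22.9, adjusted p = 3.3e-10) in the authors' deposited table, on 7 IgG reads. SMC2 stood at 25.1 and 18.2 RPKM with PABPC4, 13.9 and 6.68 with PABPC1, and 4.65 and 6.56 with IgG, and the PABPC1 libraries reached down to the IgG level. Its fold of 3.86 (1.99 to 9.33, adjusted p = 0.0015) in the authors' deposited table lost its call without IgG library A, at 3.30. NCAPH, the kleisin of condensin I, had 51 and 41 reads with PABPC4, 8 and 7 with PABPC1, and 1 and 0 with IgG. The ratio of NCAPH in the authors' deposited table was 14.4 with a counting interval from 2.16 to 494 (adjusted p = 0.037). Leaving out PABPC4 library A (12.9), IgG library B (7.22) or IgG library A, which leaves no IgG read, ended that call. The other condensin subunits NCAPD2 and NCAPG and the cohesin acetyltransferase ESCO2 were not called, at 1.75, 2.67 and 1.31 in the authors' deposited table.

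**Figure D2:**
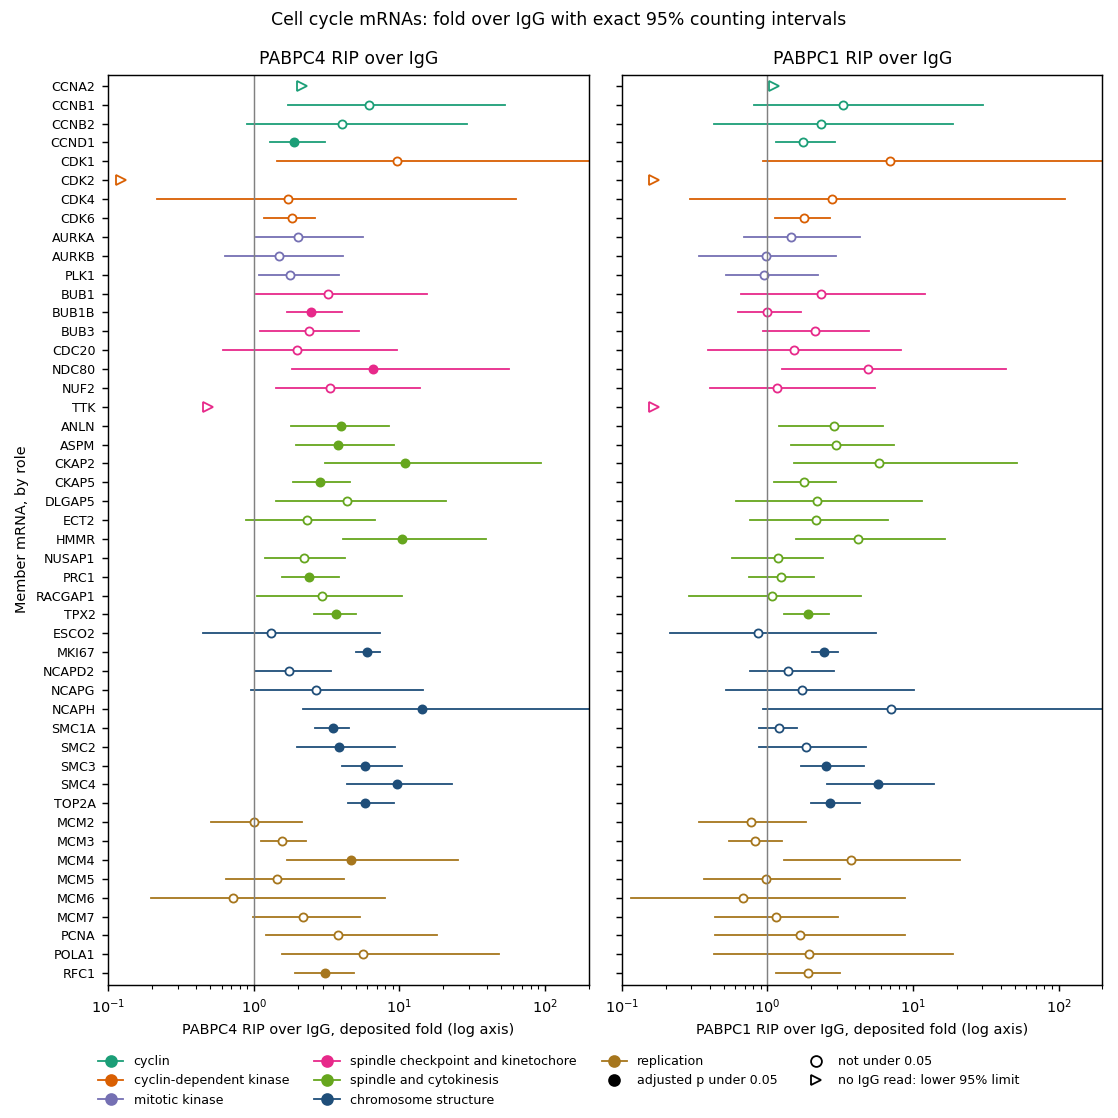
Deposited fold over IgG of the members, grouped by role, on log axes with exact 95% counting intervals, for PABPC4 (left) and PABPC1 (right), with the line at 1 meaning no difference from IgG. Filled points have a deposited adjusted p under 0.05, open triangles mark the lower limit of members with no IgG read, and some intervals run past the axis; chromosome structure holds 7 of the 19 PABPC4 calls and 4 of the 5 PABPC1 calls.

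Spindle and cytokinesis mRNAs had 7 of 11 members higher with PABPC4, with a pooled ratio of 3.42 on library totals (2.87 to 4.11) and 1.72 on nuclear reads (1.45 to 2.07). TPX2 stood at 185 and 164 RPKM with PABPC4, 78.7 and 101 with PABPC1, and 56.3 and 38.3 with IgG, without overlap. The authors' deposited table listed it at 3.69-fold with PABPC4 (2.61 to 5.04, adjusted p = 9e-15). HMMR, a microtubule-binding protein and hyaluronan receptor, stood at 51.4 and 44.1 RPKM with PABPC4, 14.9 and 23.8 with PABPC1, and 3.82 and 5.39 with IgG. Its libraries also separated by antibody, and its fold of 10.4 (4.13 to 39.4, adjusted p = 4.9e-07) in the authors' deposited table rests on 4 IgG reads. CKAP2, a spindle-associated protein, had 91 and 77 reads with PABPC4, 10 and 20 with PABPC1, and 1 and 1 with IgG. In the authors' deposited table that is a ratio of 10.9 with an interval from 3.08 to 94.0 (adjusted p = 0.00094), and the call was lost without IgG library A (9.34).

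CKAP5, the microtubule polymerase chTOG, stood at 33.8 and 30.9 RPKM with PABPC4, 19.0 and 21.5 with PABPC1, and 11.4 and 11.2 with IgG, without overlap. The fold of CKAP5 was 2.86 (1.86 to 4.60, adjusted p = 3.5e-05) in the authors' deposited table and kept its call without any single library. The call of CKAP5 was lost with nuclear totals (1.44-fold), with median-of-ratios scaling (1.62-fold) and by limma voom (1.54-fold, limma adjusted p = 0.28). ASPM, which focuses spindle poles, stood at 12.3 and 13.1 RPKM with PABPC4, 8.89 and 10.9 with PABPC1, and 2.76 and 3.90 with IgG. Its 3.81-fold (1.96 to 9.21, adjusted p = 0.0018) in the authors' deposited table lost the call without IgG library A (3.26). ANLN, the actin-binding anillin of the cleavage furrow, stood at 23.9 and 18.2 RPKM with PABPC4, 13.8 and 16.2 with PABPC1, and 8.75 and 1.76 with IgG. Its IgG libraries differed widely, and the 3.995-fold (1.79 to 8.43, adjusted p = 0.0053) of the authors' deposited table became 11.9 without IgG library A and 2.401 without IgG library B, with the call lost either way. PRC1, which bundles midzone microtubules, stood at 44.3 and 39.8 RPKM with PABPC4, 15.0 and 28.0 with PABPC1, and 17.7 and 17.3 with IgG, where PABPC1 and IgG overlap. It was 2.403-fold (1.56 to 3.87, adjusted p = 0.0016) in the authors' deposited table and lost its call without IgG library A (2.43).

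The checkpoint and kinetochore group had 2 of 7 members higher with PABPC4, where 5.54% of all genes with a p-value were higher. The share was 23.0% of all genes with at least 50 PABPC4 reads, a depth that TTK (15 reads) and CDC20 (43 reads) did not reach. The pooled ratio of the group was 2.83 on library totals (2.09 to 3.93) and 1.43 on nuclear reads (1.06 to 1.98). BUB1B, the checkpoint protein BubR1, stood at 59.6 and 60.3 RPKM with PABPC4, 22.4 and 25.8 with PABPC1, and 20.1 and 28.4 with IgG. Its PABPC1 and IgG libraries overlap, and only PABPC4 stands apart. In the authors' deposited table BUB1B was 2.47-fold (1.69 to 4.01, adjusted p = 0.00022), a call lost without IgG library A (2.11). NDC80, the microtubule-binding kinetochore subunit, had 55 and 46 reads with PABPC4, 10 and 15 with PABPC1, and 1 and 1 with IgG. Its ratio in the authors' deposited table was 6.57 with an interval from 1.83 to 56.8 (adjusted p = 0.048). The call was lost on leaving out PABPC4 library A (6.02), or either IgG library (5.62 without A and 7.92 without B). BUB3 stood at 11.2 and 7.88 RPKM with PABPC4, 7.92 and 9.12 with PABPC1, and 5.43 and 2.56 with IgG. Its 2.38-fold in the authors' deposited table was not called (1.11 to 5.32, adjusted p = 0.27).

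Among the cyclins 1 of 4 was higher with PABPC4, near the 23.0% of all genes with at least 50 PABPC4 reads. CCND1, cyclin D1 of G1 phase, stood at 43.6 and 42.1 RPKM with PABPC4, 30.1 and 48.5 with PABPC1, and 18.7 and 26.4 with IgG. Its RIPs overlap one another and both lie above IgG, and the authors' deposited table gave 1.90-fold with PABPC4 (1.30 to 3.10, adjusted p = 0.027). That call was lost on leaving out either IgG library (1.62 without A and 2.29 without B), and with nuclear totals the log2 fold was -0.05. CCNB1, cyclin B1 of mitosis, had 49 and 46 reads with PABPC4, 7 and 10 with PABPC1, and 1 and 1 with IgG, a ratio of 6.19 (1.72 to 53.5, adjusted p = 0.069) in the authors' deposited table. CCNA2, cyclin A2, had 30 and 31 reads with PABPC4, 5 and 7 with PABPC1 and 0 and 0 with IgG. Against a floor of 3 IgG reads over the group it was at least 2.73-fold higher with PABPC4 and at least 1.60-fold higher with PABPC1, without a call in the authors' deposited table (adjusted p = 0.098 and 0.80). For CCNA2 limma voom gave adjusted p = 0.033 with PABPC4 and adjusted p = 0.20 with PABPC1.

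No cyclin-dependent kinase and no mitotic kinase was called with PABPC4. CDK6, the D-type cyclin partner with most reads, stood at 15.2 and 19.7 RPKM with PABPC4, 14.9 and 19.4 with PABPC1, and 12.3 and 6.92 with IgG. The RIPs of CDK6 were nearly alike, and the authors' deposited table gave 1.82-fold with PABPC4 (1.18 to 2.65, adjusted p = 0.077). CDK1, the mitotic kinase of cyclin B, had 32 and 30 reads with PABPC4, 10 and 5 with PABPC1, and 1 and 0 with IgG, a ratio of 9.70 with an interval from 1.44 to 334 (adjusted p = 0.20) in the authors' deposited table. PLK1 stood at 22.2 and 20.7 RPKM with PABPC4, 13.1 and 9.84 with PABPC1, and 6.32 and 17.8 with IgG. AURKA stood at 21.3 and 25.2 RPKM with PABPC4, 15.3 and 18.5 with PABPC1, and 5.13 and 18.1 with IgG. Both kinases of spindle assembly had 1 high and 1 low IgG library, and the authors' deposited table called neither, at 1.78 (1.08 to 3.82) for PLK1 and 1.997 (1.04 to 5.61) for AURKA.

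Of the replication factors 2 of 9 were higher with PABPC4, near the 23.0% of all genes with at least 50 PABPC4 reads. MCM6, with 13 PABPC4 reads, lay below that depth. The pooled ratio of the replication factors over IgG was 2.14 on library totals (1.73 to 2.68) and 1.08 on nuclear reads (0.870 to 1.35), an interval that includes 1. RFC1, the large subunit of the clamp loader, stood at 41.8 and 40.2 RPKM with PABPC4, 25.7 and 25.2 with PABPC1, and 15.7 and 11.1 with IgG, without overlap. The authors' deposited table gave RFC1 3.07-fold (1.93 to 4.86, adjusted p = 2e-05). MCM3 stood at 70.6 and 66.1 RPKM with PABPC4, 36.0 and 35.5 with PABPC1, and 43.2 and 43.6 with IgG, so that its PABPC1 libraries lay below both IgG libraries. It was at 1.57 with PABPC4 (1.12 to 2.28, adjusted p = 0.12) and 0.823 with PABPC1 (0.546 to 1.26) in the authors' deposited table, neither called. On library totals the 6 helicase subunits MCM2 to MCM7 together gave a ratio of 1.68 with PABPC4 (1.30 to 2.20) and 1.02 with PABPC1 (0.756 to 1.38), against 4.497 (3.67 to 5.58) and 1.88 (1.51 to 2.38) for the 4 SMC ATPases. On nuclear reads the helicase ratio turned below 1, to 0.844 with PABPC4 (0.654 to 1.11) and 0.710 with PABPC1 (0.529 to 0.964), while the SMC ATPases stood at 2.27 (1.85 to 2.81) and 1.32 (1.05 to 1.66). MCM3 gave 422 of the 798 PABPC4 reads and 36 of the 64 IgG reads of the 6 helicase subunits. MCM4 was the helicase subunit that was called. It had 54 and 60 reads with PABPC4, 22 and 9 with PABPC1, and 1 and 2 with IgG. Its ratio of 4.68 (1.70 to 25.1, adjusted p = 0.048) in the authors' deposited table lost its call on leaving out PABPC4 library B (4.41) or either IgG library (3.17 without A and 8.93 without B). MCM2 was listed at 0.999 and MCM6 at 0.723 with PABPC4 in the authors' deposited table, the 2 members with an IgG read below 1.

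The depth behind these folds is uneven, since 19 of the 48 members had fewer than 4 IgG reads. Of the 45 members with an IgG read, 43 lay above 1 with PABPC4 in the authors' deposited table and the folds ran between 0.723 and 14.4. Nuclear totals in place of library totals left 7 of the 19 calls (MKI67, TOP2A, TPX2, SMC1A, SMC3, SMC4 and HMMR), and the same 7 were left by scaling on the median ratio. Over all genes the higher calls went from 1188 to 109 with nuclear totals and to 168 with scaling on the median ratio. With nuclear totals 36 of the 48 members lay above 1, against 46 with library totals. Without IgG library A 9 of the 19 calls were left.

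**Figure D3:**
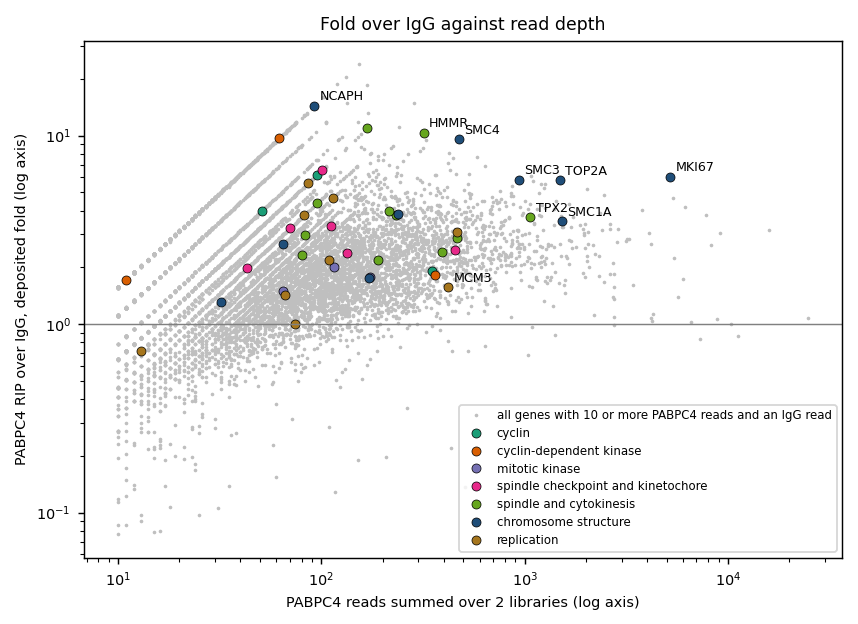
Deposited PABPC4 fold over IgG (log axis) against PABPC4 reads summed over both libraries (log axis), for genes with at least 10 PABPC4 reads and an IgG read (grey) and the 45 members among them, coloured by role. Stripes are genes that share the same few IgG reads, such as NCAPH at 14.4 on 1 IgG read; MKI67 at 6.04 stands apart in its reads.

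The comparison of PABPC1 RIP with IgG asks the same of the abundant poly(A)-binding protein. In the authors' deposited table, 5 members were higher and 0 lower, where 1.34% of the 17565 genes with a p-value were higher and 0.194% lower. All 5, MKI67, TOP2A, SMC3, SMC4 and TPX2, were also called with PABPC4, and the 2 comparisons share their IgG libraries. Of the 15 members with at least 50 PABPC1 reads 5 were higher and 0 lower, against 17.1% and 0.607% of 1317 such genes. The median fold in the authors' deposited table was 1.90 for members, or 1.79 with members without an IgG read at their bounds, and 1.67 over all genes tested. Among those deeper genes, chosen by PABPC1 reads alone, the medians from the authors' deposited table were 1.90 and 1.59. With limma voom 3 members were higher (MKI67, TOP2A and SMC4) and 0 lower, against 0.552% and 0.401% of 7977 genes.

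MKI67 was listed at 2.46-fold with PABPC1 in the authors' deposited table (2.03 to 3.03, adjusted p = 2.7e-17), and this call held without any single library. TOP2A was at 2.69 (1.99 to 4.31, adjusted p = 2.6e-06) in the authors' deposited table, became 1.92 and lost its call without IgG library A, and became 4.504 without IgG library B. SMC3 was at 2.51 (1.70 to 4.61, adjusted p = 0.0029) in the authors' deposited table. Its call was lost without IgG library A (1.73) or PABPC1 library A (2.16), and its fold was 4.55 without IgG library B. SMC4 had the largest fold among the 5, 5.75 (2.57 to 14.0, adjusted p = 0.00033) in the authors' deposited table, and lost its call on leaving out either IgG library (7.97 without A and 4.503 without B). TPX2 was at 1.90 (1.30 to 2.65, adjusted p = 0.040) in the authors' deposited table and lost its call on leaving out PABPC1 library B (1.66) or either IgG library (2.35 without A and 1.60 without B). Only the call of MKI67 thus held without each of the 4 libraries in turn.

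By role, PABPC1 gave 4 of 10 chromosome structure mRNAs and 1 of 11 spindle and cytokinesis mRNAs, and 0 of the other 27. The pooled ratios over IgG were 2.24 (1.97 to 2.57) for chromosome structure, 1.91 (1.58 to 2.32) for spindle and cytokinesis and 1.25 (0.984 to 1.61) for replication, all on library totals. On nuclear reads they were 1.57 (1.38 to 1.80), 1.33 (1.10 to 1.63) and 0.876 (0.689 to 1.12), so that the replication ratio turned below 1. The spindle and cytokinesis mRNAs together did not overlap between PABPC1 and IgG on that scale, though the nearest libraries lay close. They stood at 1741 and 2160 CPM with PABPC1 and 1653 and 1217 CPM with IgG. SMC1A was at 1.20 (0.873 to 1.60) and BUB1B at 0.991 (0.626 to 1.71) with PABPC1 in the authors' deposited table. HMMR was at 4.20 (1.57 to 16.5, adjusted p = 0.17) with PABPC1 in the authors' deposited table, a wide interval that includes the fold seen with PABPC4. Of the 45 members with an IgG read 37 lay above 1 and 8 below with PABPC1, between 0.678 and 7.004 in the authors' deposited table.

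The direct comparison of PABPC4 RIP with PABPC1 RIP asks which members differ between the proteins. It was fitted with limma voom on the recovered reads of all 6 libraries, scaled on the median gene, so a log2 value of 0 means that a member moved like the typical mRNA. Of the 44 members fitted, 7 were higher with PABPC4 and 0 lower at an adjusted p under 0.05, against 2.34% higher and 2.07% lower of 7977 genes. CDK2, CDK4, MCM6 and TTK had too few reads to be fitted. Of the 17 members with at least 200 PABPC4 reads 7 were higher, against 12.6% higher and 4.88% lower of 1352 such genes. That depth is set by PABPC4 reads alone, so it favours genes high with PABPC4, members and others alike. The median log2 value was 0.31 for members and 0.000923 for all genes, and 32 of the 44 lay above 0.

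SMC1A had the largest difference among those called, a log2 value of 1.09 (SE 0.137, limma adjusted p = 3.8e-07), from 90.2 and 82.1 RPKM with PABPC4 and 30.7 and 28.5 RPKM with PABPC1. MKI67 differed by a log2 value of 0.85 (SE 0.0757, limma adjusted p = 6.2e-11). SMC3, the partner of SMC1A in cohesin, differed by 0.78 (SE 0.161, limma adjusted p = 0.0016) on the log2 scale. Among checkpoint and spindle mRNAs, BUB1B differed by 0.86 (SE 0.207, limma adjusted p = 0.0086) and HMMR by 0.86 (SE 0.251, limma adjusted p = 0.040) on the same scale. TOP2A differed by 0.67 (SE 0.130, limma adjusted p = 0.00084) and TPX2 by 0.52 (SE 0.140, limma adjusted p = 0.023), both log2. Each of the 7 had both PABPC4 libraries above both PABPC1 libraries in RPKM. This largely follows from choosing them on the same libraries and is no further support. They include both cohesin ATPases and neither condensin ATPase: SMC2 was at 0.68 (95% interval 0.08 to 1.29, limma adjusted p = 0.23) and SMC4 at 0.28 (-0.08 to 0.63, limma adjusted p = 0.46), and whether cohesin and condensin differ was not tested.

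**Figure D4:**
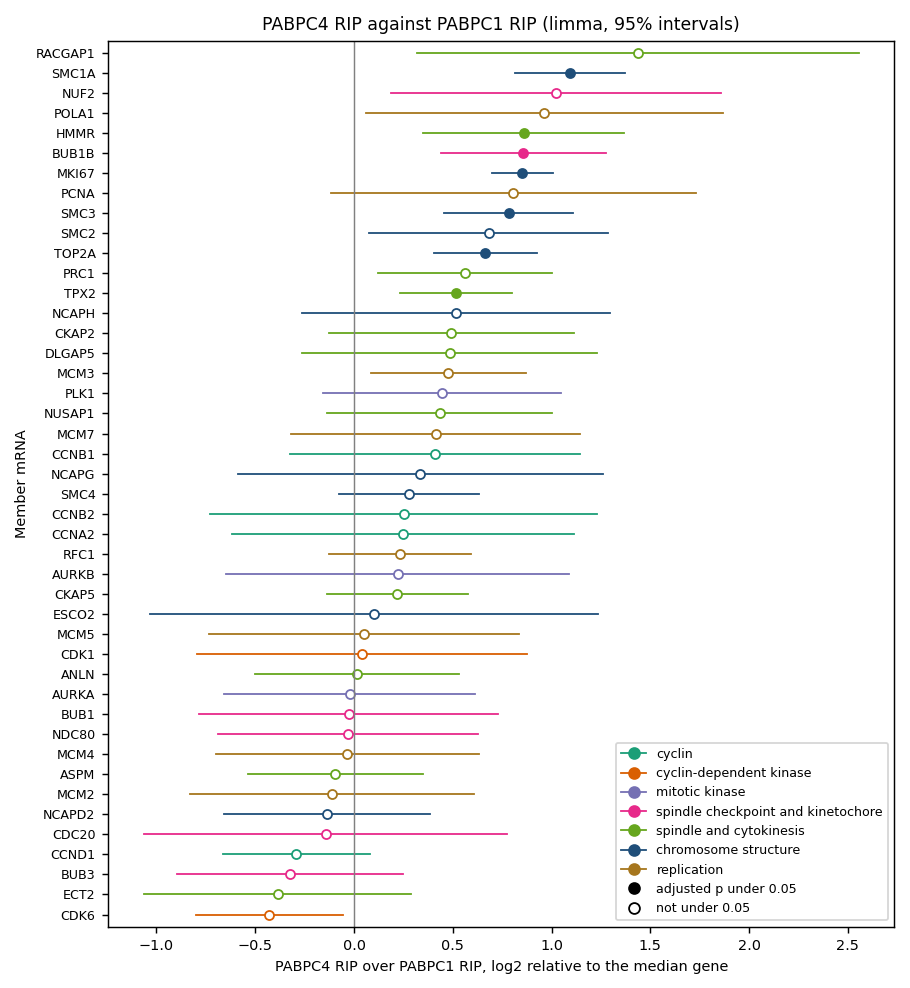
Difference between PABPC4 RIP and PABPC1 RIP for the 44 members fitted, as log2 values from limma voom scaled on the median gene, with 95% intervals and coloured by role; filled points have an adjusted p under 0.05. SMC1A at 1.09 is the highest of the 7 called, and RACGAP1 at 1.44 has a wide interval and is not called.

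These 7 calls need both PABPC1 libraries, and 5 of them were lost with limma-trend, which called MKI67 (limma adjusted p = 0.0021) and SMC1A (limma adjusted p = 0.026). The limma-trend adjusted p was 0.20 for BUB1B, 0.48 for HMMR, 0.55 for TOP2A, 0.55 for TPX2 and 0.56 for SMC3, with log2 values between 0.51 and 0.84. Without PABPC1 library A, or without PABPC1 library B, 0 of the 7 were called, in fits that called 6 and 1 genes higher of 7977. The folds themselves moved less. Without PABPC1 library A and without library B, MKI67 was at 1.74 and 1.88 against 1.80 with all libraries, SMC1A at 2.31 and 1.97 against 2.13, and SMC3 at 2.06 and 1.43 against 1.72. BUB1B was at 1.77 and 1.86, TOP2A at 1.54 and 1.63, TPX2 at 1.32 and 1.55, and HMMR at 1.51 and 2.19. TPX2 and HMMR also lost their calls without PABPC4 library A, at 1.34 and 1.67. On library totals, without centring on the median gene, all 44 lay above 0 and 19 were called higher, against 1104 of 7977 genes. The median of all genes then stood at 0.45 on the log2 scale and that of the members at 0.77.

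No member was lower with PABPC4 at the threshold with all libraries. CDK6 had the lowest log2 value, -0.43 (-0.80 to -0.06, limma adjusted p = 0.21), and without PABPC4 library B it was called lower, at -0.60 (limma adjusted p = 0.045). It was followed by the cytokinesis exchange factor ECT2 at -0.39 (-1.06 to 0.29, limma adjusted p = 0.63) and by BUB3 at -0.32 (-0.89 to 0.25, limma adjusted p = 0.63). CCND1 stood at -0.29 (-0.66 to 0.08, limma adjusted p = 0.46), so the D-type cyclin and its kinase partner CDK6 both had values below 0 and neither was called. At the other end, RACGAP1, of the centralspindlin complex of the midzone, had the highest value, 1.44 (0.32 to 2.55, limma adjusted p = 0.15), from 41 and 42 reads with PABPC4 and 1 and 9 with PABPC1. The kinetochore subunit NUF2 was at 1.02 (0.19 to 1.86, limma adjusted p = 0.18) and its complex partner NDC80 at -0.03 (-0.69 to 0.63, limma adjusted p = 0.98). POLA1, the catalytic subunit of DNA polymerase alpha, was at 0.96 (0.06 to 1.87, limma adjusted p = 0.27). By role the median log2 values were 0.59 for chromosome structure, 0.48 for spindle and cytokinesis, 0.32 for replication and -0.03 for checkpoint and kinetochore mRNAs. They were 0.25 for cyclins, 0.22 for mitotic kinases and -0.19 for the 2 cyclin-dependent kinases fitted.

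In each of the 3 comparisons MKI67, SMC3, TOP2A and TPX2 were called, and 29 of the 48 members were called in none. The called members also have many reads, and the log2 difference between the RIPs correlated with PABPC4 reads with a Spearman coefficient of 0.31 across the 44 members and 0.14 across the 7977 genes, given as a description since reads enter both measures. With gene length the coefficient was -0.17 across members and 0.01 across all genes. Members were 1471 to 12807 nucleotides long, with a median of 4563 against 5624 for all genes fitted, and lie on 21 chromosomes.

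Promoter motifs and folds can be set side by side for the 38 members with a promoter. Of the 18 with TTTGAA 10 were called with PABPC4 and the median fold in the authors' deposited table was 3.90, and of the 20 without it 6 were called and the median was 3.28. CCAAT went the other way in the authors' deposited table, with 8 of 25 called at a median fold of 3.22 with the motif, and 8 of 13 called at 3.50 without it. Between PABPC4 and PABPC1 the median log2 value was lower with TTTGAA (0.31) than without it (0.42). Of the 6 with an E2F-type octamer 0 were called, at a median fold of 2.19 in the authors' deposited table, against 16 of 32 and 3.66 without one. Of the 6 with an octamer 5 are replication factors, so the motif and the role cannot be told apart, and the difference was not tested.

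A wider list of 121 other cell cycle genes was set beside the members. In the authors' deposited table, 17 of the 121 were higher with PABPC4 and 0 lower, where 5.54% of all genes tested were higher, with a median fold of 2.34 for the 121 and 3.40 for all genes. These were 5 of 44 licensing and replication genes, 1 of 23 further cyclins, CDK regulators and transcription factors, 7 of 41 mitosis and cytokinesis genes and 4 of 13 other condensin and cohesin genes. Of all genes with at least 50 PABPC4 reads 23.0% were higher. The 121 genes were not counted by depth, so the 5.54% alone does not show an excess among them. With PABPC1 1 of 120 tested was higher and none was lower, a share below the 1.34% of all genes in the authors' deposited table, with a median fold of 1.36 against 1.67 over all genes.

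RAD21, the kleisin that closes the SMC1A and SMC3 ring, had the smallest p of these 121 genes in both tables. It had 449 and 426 reads with PABPC4, 85 and 88 with PABPC1, and 9 and 14 with IgG. Its fold in the authors' deposited table was 4.78 with PABPC4 (3.38 to 8.11, adjusted p = 2.8e-15) and 2.83 with PABPC1 (1.95 to 4.89, adjusted p = 6.5e-05). INCENP, the scaffold of the chromosomal passenger complex, was next with PABPC4 at 4.10 (2.72 to 6.67, adjusted p = 1.9e-10) in the authors' deposited table. Its kinase AURKB, a member, was at 1.497 (0.634 to 4.11) with PABPC4 in the authors' deposited table. CHAF1A, a histone chaperone subunit, was at 2.54 (adjusted p = 0.00013), DNMT1, the maintenance DNA methyltransferase, at 2.397 (adjusted p = 0.00024) and ARHGAP11A at 2.66 (adjusted p = 0.00026), all with PABPC4 in the authors' deposited table. With PABPC1 the next genes did not pass the threshold in the authors' deposited table, with MCM8, an MCM-family helicase, at 2.65 (adjusted p = 0.098), SKA2, of the kinetochore Ska complex, at 3.91 (adjusted p = 0.19) and PDS5A, a cohesin regulator, at 1.85 (adjusted p = 0.38). KNL1, the kinetochore scaffold, had a ratio of 7.44 (1.64 to 55.3, adjusted p = 0.23) on 2 IgG reads in the authors' deposited table. In the direct comparison 2 of the 96 fitted were higher with PABPC4, a share near the 2.34% of all genes fitted. These were INCENP at a log2 value of 1.15 (SE 0.189, limma adjusted p = 6.5e-05) and DNMT1 at 0.75 (SE 0.197, limma adjusted p = 0.017).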

How the data were processed

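The 2 deposited tables hold the authors' own comparisons of PABPC4 and PABPC1 RIP with IgG. Per the file headers each gene has a fold, which is a linear ratio, a p-value and an adjusted p-value. Alignment and counting tools, per the submitters' processing notes, were STAR 2.7.10a, Bowtie2 2.4.1 and featureCounts 2.0.1 on GRCh38 (hg38), and what each was used for is not stated in the sources at hand. The tables hold no library's own values (0 columns unused).

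Recomputation showed that the deposited p-value comes from a Yates-corrected chi-square on summed reads (largest log ratio to the recomputed p 8.7e-13), and that the deposited fold is a ratio of mean RPKM with 0.005 RPKM added to the IgG mean. Whole reads of the 6 libraries were solved from them for 15093 of 22607 genes with a read, all 48 members included. Another 3457 had a single possible sum, 4053 (1 or 2 reads) several, and 4 (MALAT1, RN7SL2, MT-RNR1 and MT-RNR2, deposited p of 0) none. Libraries are named A and B because the recovery does not tell their replicate number or, for IgG, their cells. Both tables used the same IgG libraries. On simulated tables all 2682 genes split into libraries equalled the simulated reads, of 2989 tried.

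Comparisons with IgG use the deposited calls. PABPC4 was set against PABPC1 with limma 3.58.1 (voom, eBayes) in R 4.3.3 on the 7977 genes reaching 10 reads in 2 or more libraries, in 3 groups with median-of-ratios scaling (3 residual and 34.6 prior degrees of freedom) and Benjamini-Hochberg adjustment. On simulated counts for this comparison 34 of 100 genes changed 2-fold, 99 of 100 changed 4-fold and 2 of 6804 unchanged genes were called. The simulation assumed the same spread between libraries for every gene and changed only genes with at least 100 PABPC4 reads. It therefore does not give the rate of false calls at the spread of the real libraries. The 95% intervals of ratios are exact for the summed reads and cover counting error only. They were computed from the recovered reads and belong to the ratio of summed reads, which can differ from the deposited fold beside them. The floor for a count of 0 is 3 reads over the group. Promoters, gene positions and the windows shown are RefSeq's, build GRCh38.p14.

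Named were all members called in any comparison, the 2 members with most reads of each role, and of the other cell cycle genes those with the 5 smallest p per table; members outside this rule were named after their values were seen. The members, lists and tests were chosen with earlier results of these data known. Alternatives were Fisher's exact test, limma over libraries, totals over solved nuclear genes (nuclear totals), median-of-ratios scaling, read minimums, 1 added read, limma-trend, RIP libraries alone and leaving out each library.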

Additional observations from a re-analysis of the deposited data

Results flagged for a closer look

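For 7 members the effects of the 2 RIPs over the same IgG libraries differed in the direct test, as log2 values of PABPC4 over PABPC1. They were SMC1A (1.09), HMMR (0.858), BUB1B (0.856), MKI67 (0.852), SMC3 (0.782), TOP2A (0.665) and TPX2 (0.516), each with a limma voom adjusted p under 0.05 on n = 2 libraries a group. Without either PABPC1 library 0 of these 7 were called. With 2 libraries a group no library could be tested as standing apart.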

How the results depend on the processing

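The count of members higher with PABPC4 than with IgG, 19, was 8 by limma voom, 7 with nuclear totals, 7 with median-of-ratios scaling, 24 by Fisher's exact test and 21 over genes with at least 10 reads, and between 9 and 19 with a library left out. The PABPC1 count, 5, was 3, 2, 3, 5 and 5 in the same order and between 1 and 6 with a library left out. For PABPC4 over PABPC1 the count of 7 was 19 on library totals, 2 with limma-trend, 7 with nuclear totals, 6 without a filter, 7 with at least 20 reads, 8 on the RIP libraries alone, and between 0 and 8 with a library left out. Adding 1 read to each sum left 19 and 5. Calls over all genes moved as well. Higher with PABPC4 than IgG were 1188 of 21455 genes as deposited and 194 of 7977 by limma voom. Nuclear totals called 109, median-of-ratios scaling 168 and Fisher's exact test 1559 of 21451. For PABPC1 these counts were 235 of 17565, 44 of 7977, and 24, 36 and 309 of 17561. Higher with PABPC4 than PABPC1 were 187 of 7977, 1104 on library totals, 18 with limma-trend and 330 on the RIP libraries alone. The log2 fold of CCND1 with PABPC4 over IgG turned to -0.0500 with nuclear totals, and no other called member in the 3 comparisons changed sign under these alternatives. With the same totals the pooled MCM2 to MCM7 ratio (both antibodies) and the pooled replication ratio (PABPC1) fell below 1. So did the pooled kinase ratios with PABPC4 (0.993 for cyclin-dependent and 0.956 for mitotic kinases) and that of mitotic kinases with PABPC1 (0.820). The cyclin-dependent kinase ratio is mostly that of CDK6, with 362 of its 440 PABPC4 reads and 28 of its 30 IgG reads. Over genes solved for every library, nuclear totals moved the median log2 fold with PABPC4 over IgG to 0.22. For the same genes it was 1.22 on library totals, in the setting with Fisher's exact test. The members' median moved to 0.74 from 1.71. The 1.77 of the authors' deposited table covers all genes tested, a wider set. The cause of the differences between settings was not tested. Where a library is left out, the lone library of its group is assumed to vary like the others in the limma fits. No paired analysis was possible because the recovered libraries carry no replicate numbers. The IgG depth limits the folds.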
